A study of Homo sapiens with 6 samples.

Results

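The genes described here are 10 protein-coding genes that lie beside ADORA1 on chromosome 1, from UBE2T at 202331544 to SOX13 at 204127743 in GRCh38. They were chosen by name, as neighbours of ADORA1, which encodes an adenosine receptor, and all 10, of 61806 genes in the table, were found on that chromosome under the listed symbols. Poly(A)-selected RNA was sequenced in 6 libraries of HEK293, a human line made from embryonic kidney cells and grown in DMEM with fetal bovine serum. The 3 libraries called mutant here carry the variant rs16851030, placed in the genome with CRISPR and homology-directed repair, in which a supplied template rewrites the DNA at a cut. The other 3 came from wild-type HEK293 cells. The variant lies in ADORA1, and the comparison sets transcript levels of cells that carry it against those of wild-type cells. Effects of the variant, of the editing steps and of differences between clones cannot be told apart in this design. The labels speak of biological replicates, but the sources used here do not say whether the mutant libraries stem from a single edited clone, so p-values measure only the spread between these libraries, which may be technical.

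Genes that lie next to each other can share enhancers and chromatin domains, so the neighbours of an edited gene are often read beside the gene itself. The 10 genes have no common function. They encode a ubiquitin-conjugating enzyme of DNA crosslink repair (UBE2T), a histone demethylase (KDM5B), a chaperone of RAB GTPases (RABIF), a substrate adaptor of a cullin ubiquitin ligase (KLHL12), an adiponectin receptor (ADIPOR1), a reductase of the cytochrome b5 reductase family (CYB5R1), a transmembrane protein (TMEM183A), an antiproliferative cofactor of mRNA deadenylation (BTG2), a plasma membrane calcium pump (ATP2B4) and a transcription factor of the SOXD group (SOX13).

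Promoter sequences are shown for both members of the closest adjacent pair with opposite changes, RABIF and KLHL12, and for UBE2T and TMEM183A. UBE2T rose and TMEM183A fell, and each has a window with both CCAAT and TGACG. Of the 2 windows of TMEM183A, window 1 is shown, and window 2 had 0 matches to either. Each run is the 250 bases before the RefSeq start of the gene (GRCh38.p14), read 5′ to 3′ on the strand of the gene. Capitals mark CCAAT, the letters bound by the factor NF-Y, and TGACG, part of the cAMP response element, on either strand.

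RABIF (chr1:202889150-202889399, minus strand): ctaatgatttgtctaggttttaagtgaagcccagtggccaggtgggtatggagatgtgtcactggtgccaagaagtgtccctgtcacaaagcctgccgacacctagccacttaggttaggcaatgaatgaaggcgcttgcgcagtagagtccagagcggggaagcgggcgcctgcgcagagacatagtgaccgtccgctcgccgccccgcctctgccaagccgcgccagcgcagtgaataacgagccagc
KLHL12 (chr1:202928600-202928849, minus strand): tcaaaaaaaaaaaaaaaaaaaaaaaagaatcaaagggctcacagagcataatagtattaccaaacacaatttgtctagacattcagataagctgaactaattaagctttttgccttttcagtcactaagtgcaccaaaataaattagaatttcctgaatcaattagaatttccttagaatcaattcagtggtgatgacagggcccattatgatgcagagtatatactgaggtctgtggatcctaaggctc
UBE2T (chr1:202341937-202342186, minus strand): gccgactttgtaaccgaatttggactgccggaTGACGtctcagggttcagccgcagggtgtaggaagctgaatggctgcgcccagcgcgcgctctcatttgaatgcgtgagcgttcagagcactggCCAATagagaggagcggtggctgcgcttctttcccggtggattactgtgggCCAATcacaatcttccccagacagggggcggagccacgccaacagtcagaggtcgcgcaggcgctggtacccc
TMEM183A (chr1:203007124-203007373, plus strand): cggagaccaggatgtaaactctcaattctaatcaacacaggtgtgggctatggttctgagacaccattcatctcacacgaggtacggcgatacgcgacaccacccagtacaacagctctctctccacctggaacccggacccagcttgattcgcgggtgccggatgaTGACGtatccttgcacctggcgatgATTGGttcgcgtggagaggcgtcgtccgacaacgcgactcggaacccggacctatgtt

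UBE2T had 2 matches to CCAAT and 1 to TGACG in this window, and TMEM183A had 1 of each. RABIF and KLHL12 had 0 matches to either. The RABIF window held 58.8% G and C with 16 CpG dinucleotides, and the KLHL12 window 33.2% with 0 CpG. RefSeq gave windows for 9 of the 10 genes, 12 in all because ADIPOR1 has 3 and TMEM183A has 2. Both CCAAT and TGACG occurred in 4 of the 12, those of UBE2T and BTG2 and 1 each of ADIPOR1 and TMEM183A, against 7.26% of the 35116 windows of all genes. Taken singly, CCAAT was in 4 of 12 windows (32.0% of all windows), TGACG in 4 (21.2%), the GC box GGGCGG in 9 (42.6%) and TATAAA in 0 (10.7%), each on both strands. In the 12 windows, 0 pairs of matches to different motifs shared a base. The windows of all genes were not filtered by expression or matched for G and C, so these shares are not like for like. No difference between them was tested. A match is a description of letters and not evidence of binding.

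ADORA1 itself was barely expressed, mutant and wild-type libraries alike. Its levels were 0.56, 0.65 and 0.51 FPKM in mutant replicates 1 to 3 and 0.59, 0.41 and 0.44 FPKM in wild-type replicates 1 to 3. FPKM is the number of fragments per kilobase of exonic length scaled to the assigned counts of the library. The groups overlapped, since wild-type replicate 1 was higher than mutant replicates 1 and 3. The log2 fold change, mutant minus wild type, was 0.19 (SE 0.24, 95% interval -0.29 to 0.67, adjusted p = 0.604 in edgeR's quasi-likelihood test without an expression minimum). These libraries therefore leave room for changes of 0.816-fold to 1.59-fold in ADORA1. Permuting the 6 libraries in an exact test on log2 FPKM, two-sided, gave p = 0.3, where the smallest p that 3 against 3 libraries allow is 0.1.

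Mutant libraries held 16013460 to 20349609 assigned counts each and wild-type libraries 16867853 to 17938985. Of 10 markers chosen for HEK293 cells, 8 averaged at least 1 FPKM in the mutant and 6 in the wild type; VIM and NEFM led them, PAX8 was listed at 0 in all 6 libraries and PAX2 stayed at or below 0.27 FPKM. Their summed level was 124.9 to 129.2 FPKM in mutant and 187.8 to 217.8 FPKM in wild-type libraries. Of 8 markers of other cells, COL3A1 alone averaged at least 1 FPKM, and in the mutant only; PTPRC and CD3E were at 0 throughout, and the summed level was 1.23 to 1.32 FPKM in mutant and 0.37 to 0.56 FPKM in wild-type libraries. Whether these shifts bear on the genes beside ADORA1 was not tested.

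Of the 10 genes, 5 were higher in the mutant (UBE2T, KLHL12, ADIPOR1, ATP2B4 and SOX13), 3 were lower (KDM5B, RABIF and TMEM183A), and CYB5R1 and BTG2 did not pass. All 10 reached the expression minimum, a mean of 1 FPKM over the 6 libraries, and calls were made where the p adjusted over all 12550 tested genes was below 0.05. The comparison called many genes: 58.0% of those tested passed, 29.4% higher and 28.7% lower in the mutant, so that 8 calls in 10 genes have to be read against a background of more than every second gene. Groups did not overlap for 8 of the 10 genes, against 62.9% of all tested genes. The changes were modest. No member reached a 2-fold difference, which 546 tested genes did among those called, and the largest fitted change, that of ATP2B4, was greater in size than that of 85.4% of tested genes. The median absolute log2 fold change was 0.29 for the 10 genes and 0.25 for all tested genes, and the signed medians were 0.12 and 0.00. In bulk RNA, fewer cells that express a gene and less of its RNA per cell cannot be told apart.

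The order of levels ran from ADIPOR1, at 61.5 ± 0.449 FPKM in the mutant and 53.4 ± 1.52 FPKM in the wild type (SD, n = 3 each), to SOX13, at 3.01 ± 0.0954 FPKM in the mutant and 1.96 ± 0.267 FPKM in the wild type (SD, n = 3 each). In the mutant the order was ADIPOR1, UBE2T, KLHL12, TMEM183A, BTG2, CYB5R1, ATP2B4, KDM5B, RABIF and SOX13. Neighbours in that order were separated in every library except KDM5B and RABIF, whose ranges overlapped. In the wild type TMEM183A stood above KLHL12, and RABIF and KDM5B stood above ATP2B4. No neighbouring ranges overlapped there. The 10 genes together took 828.3, 844.8 and 832.1 CPM (counts scaled to library size) in the mutant libraries, against 752.1, 746.2 and 763.6 in the wild-type libraries.

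Both genes with a role in ubiquitin transfer rose. UBE2T works with the ligase subunit FANCL to attach ubiquitin to FANCD2 and FANCI at DNA crosslinks. It lies 748.7 kb before ADORA1 on the minus strand (ENSG00000077152, 202331544 to 202341984) and had 46.9, 50.5 and 48.5 FPKM in the mutant and 34.6, 35.5 and 36.1 FPKM in the wild type. Every mutant library was above every wild-type library, and the fitted log2 difference was 0.42 (SE 0.05, adjusted p = 1.45e-06), or 1.34-fold. KLHL12 brings substrates to the CUL3 ubiquitin ligase, among them the COPII coat protein SEC31A and the WNT pathway protein Dishevelled. It lies 162 kb before ADORA1, also on the minus strand (ENSG00000117153, 202891116 to 202928636), and had 32.3, 34.4 and 31.9 FPKM in the mutant and 24.1, 23.2 and 26.4 FPKM in the wild type. Again the groups were separate, by 0.39 on the log2 scale (SE 0.05, adjusted p = 7.1e-06). The processed pseudogene HNRNPA1P59 lies inside KLHL12 on the other strand and had 3 to 16 counts per library, beside 1375 to 2302 for KLHL12.

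RABIF, next to KLHL12 on its far side from ADORA1, moved the other way. Its product holds RAB GTPases, RAB10 among them, in a stable nucleotide-free form. RABIF (ENSG00000183155, 202878282 to 202889149, minus strand) ends 1.97 kb before KLHL12 begins and lies 201.5 kb before ADORA1. It had 5.59, 5.60 and 4.87 FPKM in the mutant and 6.85, 7.18 and 7.17 FPKM in the wild type. All mutant libraries were below all wild-type libraries, at a fitted log2 fold change of -0.43 (SE 0.09, adjusted p = 4.7e-04). The ratio of RABIF counts to KLHL12 counts, which does not depend on how libraries are scaled, was 0.154, 0.145 and 0.136 for the mutant replicates and 0.253, 0.275 and 0.242 for the wild-type replicates. That is a 0.565-fold ratio between groups that do not overlap. In a two-sided exact permutation test this gave p = 0.1, the smallest value that 3 against 3 libraries can give, and 0.15 after Benjamini-Hochberg adjustment over 9 adjacent pairs.

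Such ratios were computed for all 9 pairs of members adjacent in the order by position, and the groups did not overlap in 6 of them. The ratio in the mutant relative to the wild type was 1.475-fold for UBE2T over KDM5B, 1.23-fold for KDM5B over RABIF, 1.16-fold for KLHL12 over ADIPOR1, 1.23-fold for ADIPOR1 over CYB5R1 and 0.693-fold for BTG2 over ATP2B4; each had an exact permutation p of 0.1 and 0.15 after adjustment over the 9 pairs. The groups overlapped for CYB5R1 over TMEM183A (1.04-fold), for TMEM183A over BTG2 (0.826-fold) and for ATP2B4 over SOX13 (1.02-fold), with exact permutation p of 0.5, 0.2 and 1.0. The design allows no p below 0.1, so these pairs are described by their values and not by a call.

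KDM5B, which removes methyl groups from lysine 4 of histone H3, was slightly lower. The gene (ENSG00000117139, 202724495 to 202808487, minus strand) lies 282.2 kb before ADORA1. It had 5.44, 5.16 and 5.56 FPKM in the mutant and 5.62, 6.08 and 5.65 FPKM in the wild type. The groups came close without overlapping, at mutant replicate 3 and wild-type replicate 1. The log2 fold change was -0.14 (SE 0.05, adjusted p = 0.021), and the call was lost in 8 of 16 alternatives, including scaling by library totals (-0.10, adjusted p = 0.0812) and leaving out mutant replicate 2 (-0.11, adjusted p = 0.0986) or wild-type replicate 2 (-0.09, adjusted p = 0.111). The direction was lower in all 16.

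The gene nearest to ADORA1 among the 10 is TMEM183A, on the plus strand 65.8 kb before it (ENSG00000163444, 203007374 to 203024848). It had 28.6, 30.8 and 28.7 FPKM in the mutant and 33.6, 31.2 and 33.0 FPKM in the wild type. Mutant replicate 2 and wild-type replicate 2 were close, and the groups did not overlap. The log2 fold change was -0.19 (SE 0.05, adjusted p = 0.00266), a 0.879-fold level. The call was lost when limma was run on log2(TPM + 1), the FPKM set to one sum per library (log2 fold change -0.11, adjusted p = 0.056).

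ADIPOR1 and CYB5R1 lie 3.30 kb from each other on the minus strand. ADIPOR1 encodes a receptor of the fat-cell hormone adiponectin that signals through AMPK. It lies 132.1 kb before ADORA1 (ENSG00000159346, 202940826 to 202958572) and had 61.7, 61.8 and 61.0 FPKM in the mutant and 52.3, 55.1 and 52.7 FPKM in the wild type. The mutant libraries were all higher, by 0.17 on the log2 scale (SE 0.04, adjusted p = 0.0017), or 1.13-fold. CYB5R1 belongs to the enzymes that move electrons from NADH. The gene (ENSG00000159348, 202961873 to 202967275, 123.4 kb before ADORA1) had 8.67, 9.91 and 9.34 FPKM in the mutant and 9.93, 10.4 and 9.51 FPKM in the wild type. Mutant replicate 2 lay above wild-type replicate 3, so the groups overlapped. The log2 fold change of CYB5R1 was -0.13 (SE 0.07, 95% interval -0.27 to 0.01, adjusted p = 0.112) and did not pass.

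On the far side of ADORA1, BTG2 did not pass and both genes beyond it rose. BTG2 brings the CCR4-NOT deadenylase to mRNAs and is known as a p53 target and as an immediate early gene. It lies on the plus strand 138.1 kb after ADORA1 (ENSG00000159388, 203305491 to 203309602) and had 15.2, 14.9 and 14.8 FPKM in the mutant and 13.9, 11.6 and 16.1 FPKM in the wild type. The wild-type libraries spread on both sides of the mutant libraries. The log2 fold change was 0.08 (SE 0.09, 95% interval -0.11 to 0.26, adjusted p = 0.470), and without wild-type replicate 2 it was -0.03.

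ATP2B4, a pump that drives calcium out of the cell, and SOX13 had the largest fitted changes of the 10, close to each other within their errors. It lies on the plus strand 459.4 kb after ADORA1 (ENSG00000058668, 203626787 to 203744081) and had 6.38, 5.98 and 6.52 FPKM in the mutant and 4.50, 3.59 and 3.97 FPKM in the wild type. The groups were well apart. The log2 fold change was 0.61 (SE 0.07, 95% interval 0.46 to 0.76, adjusted p = 1.15e-06), or 1.53-fold. SOX13 lies on the plus strand 905.7 kb after ADORA1, the farthest of the 10 (ENSG00000143842, 204073115 to 204127743). It had 3.06, 2.90 and 3.07 FPKM in the mutant and 2.05, 1.66 and 2.17 FPKM in the wild type, from 362 to 462 counts in the mutant and 208 to 286 counts in the wild type. No library of one group reached the other, and the log2 fold change was 0.58 (SE 0.10, adjusted p = 6.89e-05).

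In order of distance from ADORA1, the log2 fold changes were -0.19 for TMEM183A, -0.13 for CYB5R1, 0.17 for ADIPOR1, 0.08 for BTG2, 0.39 for KLHL12, -0.43 for RABIF, -0.14 for KDM5B, 0.61 for ATP2B4, 0.42 for UBE2T and 0.58 for SOX13. The 3 farthest genes were all higher, at log2 fold changes of at least 0.42. Among the 7 nearer ones, 2 were higher, 3 were lower and 2 did not pass. These are values at 10 places in 1 set of libraries, and no trend with distance was tested.

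The interval around the 10 genes holds 81 annotated genes, of which 65 stayed under the expression minimum and 30 had no count in any library. Besides the 10, 6 others were tested. Of these, 3 were higher in the mutant, 1 was lower and 2 did not pass. Among those higher, PPP1R12B, a myosin phosphatase subunit gene, rose by a log2 fold change of 0.23 (adjusted p = 0.0234) and ETNK2, an ethanolamine kinase gene, by 0.23 (adjusted p = 0.0125). In the fit without the minimum both calls were unstable: PPP1R12B was called in 7 of 14 alternatives and ETNK2 in 6 of 14, each higher in the mutant in all 14. With the minimum, leaving out each library in turn kept 3 to 4 calls among the 6 other genes. SNRPE, which encodes a core protein of spliceosomal RNPs, fell by 0.25 on the log2 scale (adjusted p = 7.58e-04). The pseudogene TUBA5P had a log2 fold change of 0.10 and a processed pseudogene without a symbol, ENSG00000236439, one of 0.11, and neither passed.

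Larger differences than in the 10 genes were found among genes of the interval under the expression minimum, which are named here after their values were seen. PPFIA4, a liprin gene on the plus strand, lies between TMEM183A and ADORA1 and ends 11.9 kb before ADORA1. It had 244, 207 and 210 counts in the mutant and 100, 60 and 66 counts in the wild type, or 1.28 ± 0.0611 FPKM in the mutant and 0.440 ± 0.113 FPKM in the wild type (SD, n = 3 each). In the fit without the minimum its log2 fold change was 1.46 (SE 0.15, adjusted p = 2.48e-22), or 2.76-fold. TMEM183A, on its one side, fell, and ADORA1, on the other, did not pass.

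SYT2, a synaptotagmin gene, lies between PPP1R12B and KDM5B and shares its last bases with PPP1R12B on the other strand. It had 169, 160 and 148 counts in the mutant and 78, 43 and 73 counts in the wild type, and its fitted log2 difference was 1.22 (SE 0.16, adjusted p = 4.98e-13). PCAT6, a noncoding RNA gene that starts just outside the 5′ end of KDM5B on the other strand, had 46, 41 and 39 counts in the mutant and 13, 1 and 12 counts in the wild type. Its log2 fold change was 2.18 (SE 0.33, adjusted p = 9.14e-10), while KDM5B, across the gap, changed by -0.14. For PPFIA4, SYT2 and PCAT6 the groups did not overlap, and each was called in all 14 alternatives of the fit without the minimum. Over these alternatives, run in edgeR, DESeq2 or limma, the highest adjusted p was 0.0052 for PPFIA4, 0.013 for SYT2 and 0.036 for PCAT6. The size depended on the scale, with log2 fold changes as low as 0.67 for PPFIA4, 0.55 for SYT2 and 0.93 for PCAT6 in limma on log2(FPKM + 1), a scale that understates changes of low genes. HNRNPA1P59 was called lower in that fit (log2 fold change -1.36, adjusted p = 0.0399) and in 4 of its 14 alternatives. Low counts limit these fold changes, since a count of 1 in 1 wild-type library enters that of PCAT6.

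More genes were higher than lower in the wider surroundings of ADORA1 too. Of the 124 tested genes of chromosome 1 at 1 to 20 Mb from ADORA1 on either side, 54 were higher (43.5%), 22 were lower (17.7%) and 48 did not pass. Beyond 20 Mb, 308 of 1149 were higher (26.8%) and 346 lower (30.1%). The median log2 fold change was 0.11 at 1 to 20 Mb and -0.03 beyond. Within 1 Mb, where the 10 genes lie, 8 of 16 tested genes were higher and 4 lower, with a median of 0.14. The band beyond 20 Mb pools the rest of the chromosome, so the shares do not show where the excess of higher genes ends. Genes of 1 stretch share their libraries and are not independent, and these shares were not tested against each other.

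Listed relatives by sequence family, which lie elsewhere in the genome, did not share one direction. Relatives were listed for ADIPOR1, CYB5R1, KDM5B, BTG2, ATP2B4 and SOX13, and none for UBE2T, KLHL12, RABIF or TMEM183A. The lists of relatives and partners were drawn up with earlier results of these data known. Of 15 relatives, 10 were tested, 2 were higher, 6 were lower and 2 did not pass, beside 29.4% higher and 28.7% lower of all tested genes, with a median log2 fold change of -0.13. ADIPOR2, the other adiponectin receptor gene, had 24.6 FPKM in the mutant and 25.9 FPKM in the wild type and fell by 0.11 on the log2 scale (adjusted p = 0.0328), whereas ADIPOR1 rose. ATP2B1, the other calcium pump gene that was tested, changed by -0.14 (adjusted p = 0.0214) with overlapping groups, whereas ATP2B4 rose by 0.61. CYB5R3 and CYB5R4 fell by 0.26 and 0.35 on the log2 scale (adjusted p = 3.67e-04 and 4.01e-04), and the point estimate of CYB5R1 was -0.13. CYB5RL, a gene of this family outside the list, was tested and did not pass (log2 fold change -0.05, adjusted p = 0.586). KDM5A and KDM5C, at 0.03 and 0.04, did not pass. The relatives of BTG2 split, with BTG1 (0.65) and BTG3 (0.51) higher and TOB1 (-0.26) and TOB2 (-0.63) lower. SOX5 and SOX6, the relatives of SOX13, stayed under the expression minimum, as did CYB5R2, ATP2B2 and ATP2B3. SOX5 had 103, 74 and 70 counts in the mutant and 52, 41 and 56 in the wild type. SOX6 had 261, 231 and 242 counts in the mutant and 121, 132 and 135 in the wild type. In both genes all mutant libraries were above all wild-type libraries.

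Among partners, those listed for KLHL12 all fell where they were tested, beside 28.7% called lower of all tested genes. CUL3, the scaffold of its ligase, changed by -0.22, the ring subunit RBX1 by -0.26, the calcium-binding co-adaptor PEF1 by -0.30, and the COPII coat genes SEC13 and SEC31A by -0.25 and -1.19. SEC31A, the substrate, stood at 8.39 FPKM in the mutant and 18.8 FPKM in the wild type (adjusted p = 2.16e-12), while KLHL12 itself rose. PDCD6, the other co-adaptor, was under the minimum. The list held no gene of the substrate Dishevelled. DVL1, which encodes a Dishevelled protein, was tested and did not pass (log2 fold change 0.12, adjusted p = 0.0935). Other Dishevelled genes are not given here. Of the 11 listed Fanconi genes that act with UBE2T, 10 were tested. Of these, 5 rose, 0 fell and 5 did not pass, with a median log2 fold change of 0.18. Of all tested genes, 29.4% were called higher and 28.7% lower, 58.0% in either direction. FANCF, under the minimum, had 2, 2 and 3 counts in the mutant and 21, 18 and 9 in the wild type, so that its groups were apart in the other direction. FAAP20, a Fanconi gene outside the list, was tested and fell by 0.21 on the log2 scale (adjusted p = 0.0146). FANCA rose by 0.67, FANCB by 0.43, FANCE by 0.25, FANCL by 0.24 and the substrate gene FANCD2 by 0.21, beside 0.42 for UBE2T. FANCI, the other substrate gene, was at 0.06 and did not pass (adjusted p = 0.214).

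RABIF fell, and of its RAB clients RAB8A changed by -0.26 (adjusted p = 0.00152), while RAB10 (0.05) and RAB13 (0.00) did not pass. For ADIPOR1, the adaptor APPL1 (0.01) and the AMPK subunit genes PRKAA1 (-0.01) and PRKAG1 (-0.37) did not pass. PRKAA2 rose by 0.22 and PRKAB1 fell by 0.43 on the log2 scale. PRKAB2, an AMPK subunit gene outside the list, rose by 0.18 (adjusted p = 0.00751). The auxiliary subunits of calcium pumps, BSG and NPTN, had log2 fold changes of 0.00 and -0.08 and did not pass, beside the rise of ATP2B4. Of the genes that act with BTG2 in mRNA deadenylation, CNOT1 rose by 0.53, PABPC1 by 0.22 and CNOT8 by 0.18, and CNOT7 fell by 0.35 on the log2 scale. PRMT1, an arginine methyltransferase that binds BTG2, did not pass. Over all 32 partners, 30 were tested, 9 were higher, 8 were lower and 13 did not pass, and the median was 0.00, so the share called was close to the 58.0% of all tested genes.

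BTG2 was also set beside other genes that share its known inducers. Both lists are read beside 29.4% called higher and 28.7% called lower of all tested genes. Of 12 immediate early genes, 11 were tested, 7 rose, 1 fell and 3 did not pass. Their median log2 fold change was 0.78, whereas BTG2 was at 0.08. EGR1 (4.37), FOS (4.07), ATF3 (1.60) and JUN (1.28) led them, and IER3 fell by 0.43 on the log2 scale. Of 16 p53 targets, 14 were tested, 7 rose, 3 fell and 4 did not pass, with a median of 0.18. SESN2 (0.77), DDB2 (0.68) and XPC (0.46) rose and TIGAR (-0.64), MDM2 (-0.42) and TP53INP1 (-0.36) fell. Whether BTG2 differs from either list was not tested.

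For each of the 10 genes, the tested gene with the most similar profile was found by Pearson correlation of log2 CPM over the 6 libraries, as a description. These correlations ran from 0.9893 (CYB5R1 with EOLA1) to 0.9997 (ATP2B4 with ZSCAN30). The others were UBE2T with LDOC1, KDM5B with AGO1, RABIF with HSF1, KLHL12 with ANXA4, ADIPOR1 with CYFIP2, TMEM183A with SYF2, BTG2 with GPN3 and SOX13 with CPM. In no case was it a gene of the interval, and AGO1 and SYF2 lie on chromosome 1. The interval holds few of the 12550 tested genes, so this says little about position. Near ties were common for some members: 108 genes correlated above 0.99 with ATP2B4 and 74 with UBE2T, against 0 with CYB5R1.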

How the data were processed

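RNA of 6 HEK293 libraries, 3 mutant and 3 wild type, was analysed from 1 table deposited by the authors. Per the submitters' processing notes, the authors made the counts on the GRCh38 build, and the tools named there are cutadapt, HTSeq and HISAT2 (2.0.1). Sources used here name neither annotation release nor strand setting. The deposited FPKM matched values recomputed from counts, exonic gene lengths and library totals within 0.011 for 100% of values. Genes with a mean of at least 1 FPKM were tested. Counts were scaled by TMM (factors 0.9804 to 1.017) and tested in edgeR 4.0.16 with the quasi-likelihood F-test, two-sided, adjusted by the Benjamini-Hochberg method over all tested genes, and called at an adjusted p below 0.05. SEs and 95% intervals were derived from the F statistic and its degrees of freedom. The steps were tested on simulated data. Genes under the minimum, ADORA1 among them, were taken from the same fit without it.

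The interval holds the genes of chromosome 1 that lie wholly inside a fixed stretch around the 10 genes. The genes described and the lists were chosen with earlier results of these data known. Named were the 10 genes, ADORA1, the tested genes of the interval, members of the lists and, for each of the 10, the most similar gene; others are marked, and 1 tested gene of the interval is not reported here. Alternatives were other scalings, DESeq2 1.42.0, limma 3.58.1 on log2(FPKM + 1), log2(FPKM + 0.1) and rescaled values, other minimums, a replicate block and leaving out each library. No 2 libraries of a group were duplicates (chi-square per degree of freedom at least 2.52).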

Additional observations from a re-analysis of the deposited data

How the results depend on the processing

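UBE2T, RABIF, KLHL12, ADIPOR1, ATP2B4 and SOX13 kept their direction and call in every alternative run (SOX13 was not tested at a minimum of 5 FPKM), and CYB5R1 and ADORA1 stayed uncalled in all, ADORA1 at log2 fold changes of 0.09 to 0.35. BTG2 reversed without wild-type replicate 2 (-0.0328; leave-one-out range -0.03 to 0.20). KDM5B ranged from -0.17 to -0.06 and lost its call in 8 of 16 alternatives. With values rescaled to a common total (TPM), 1 of the 10 genes was called lower in place of 3, and 62.4% of all called genes were higher (4191 higher, 2525 lower), against 50.6% in edgeR with TMM scaling. Without the expression minimum, 8 other genes of the interval were called, against 4 with it. At a minimum of 5 FPKM, 4597 genes were called, against 7284; the set tested was smaller.

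Replicate numbers shared between the groups did not pair the libraries: deviations of same-numbered libraries from their group means correlated at -0.028 to -0.0015 over genes. With the number as a replicate block, the calls of the 10 genes and of ADORA1 did not change, and 7069 genes were called, against 7284. Counting error limits ADORA1, at 29 to 48 counts per library, and PCAT6, at 1 to 46.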
